A study of Mus musculus with 9 samples.

Results

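The 78 mouse genes for mitochondrial ribosomal proteins were followed in MLO-Y4 cells, an osteocyte-like mouse cell line, that shared medium with primary mouse chondrocytes across a transwell membrane. The members were all protein-coding genes whose symbol begins with Mrpl (49 genes) or Mrps (29 genes) followed by a number, among 56748 genes in the count table, and 6 processed pseudogenes with such names were left out. RNA was sequenced from 9 libraries of the MLO-Y4 cells. In 3 control libraries the chondrocytes had not been stimulated, and the labels do not give the hours of control co-culture, so stimulation and time in co-culture cannot be told apart in comparisons with the control. In 3 libraries the cells had been co-cultured for 24 h, and in 3 others for 48 h, with chondrocytes first given IL-1β at 10 ng/ml for 6 h and then washed. The chondrocytes came from C57BL/6J pups, and no group carried a genetic change. The labels name the line MLO-Y4 for the control and 24 h libraries and give running names, MLO-Y5 to MLO-Y7, for the 48 h libraries, whereas the protocol names MLO-Y4 throughout. Nothing in the labels says that the libraries of a group came from separate cultures, so each p-value measures the spread between these libraries, which may be technical.

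Mitochondria carry their own ribosome, which translates the 13 mRNAs encoded in mitochondrial DNA, all of them for subunits of the respiratory chain and ATP synthase. Its rRNAs are transcribed inside the organelle, while every one of its proteins is encoded in the nucleus, made in the cytosol and imported. The large subunit joins amino acids and releases the peptide, and the small subunit decodes the mRNA. Some proteins have counterparts in bacterial ribosomes and others were added in the mitochondrial lineage.

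Libraries held 12250628 to 18515456 counted reads, of which 45904 to 58384 fell on the members. Values per library are CPM, the count of a gene scaled to a common library size by TMM, and scaling factors lay between 0.983 and 1.02. The markers Dmp1, Sost, Mepe and Fgf23, which define mature osteocytes, were nearly absent, with at most 6 reads in a library for Dmp1, 1 for Sost and 0 for Mepe and Fgf23, whereas Pdpn, Gja1, Phex and Spp1 were present. Of 11 osteocyte and osteoblast markers tested, 4 were called higher and 5 lower at 48 h, against 22% and 24.4% of all genes tested. Of the 14 chondrocyte markers, Acan, Matn1, Col9a1, Col9a2 and Cnmd had 0 reads in every library and Col2a1 had at most 7. Sox9 was present, with 1379 to 2239 reads in a library. The summed level of the chondrocyte markers was 1682 to 1717 CPM in the control and 1567 to 1650 CPM at 24 h. At 48 h it was 2131 to 2219 CPM. Most of the sum came from Prg4. Of the 5 chondrocyte markers tested, 4 were called higher at 48 h, against 22% of all genes tested. Matn3 was called lower (log2 fold change -1.25). The part of these markers in the results was not tested.

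After 48 h the mitochondrial ribosomal protein genes were lower as a group. Summed over the 78 members, the level was 3665, 3898 and 3454 CPM in the control libraries, 3463, 3609 and 3589 CPM at 24 h, and 2956, 2952 and 2818 CPM at 48 h. All 3 libraries at 48 h lay below every control and 24 h library, while the control and 24 h libraries overlapped. The group means were 3672 ± 222 CPM (SD, n = 3) in the control, 3554 ± 79.2 at 24 h and 2909 ± 78.5 at 48 h, so that the summed level fell by 20.8% from control to 48 h. The difference from control to 24 h in the same sum was -3.24%. As a share of all counted reads, the members took 0.345% to 0.389% in the control, 0.342% to 0.356% at 24 h and 0.285% to 0.299% at 48 h. Both CPM and shares are relative to the other RNA counted and do not give amounts per cell. Fewer cells of a type, less of these RNAs per cell and more of other RNAs cannot be told apart in such bulk libraries.

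**Figure D1:**
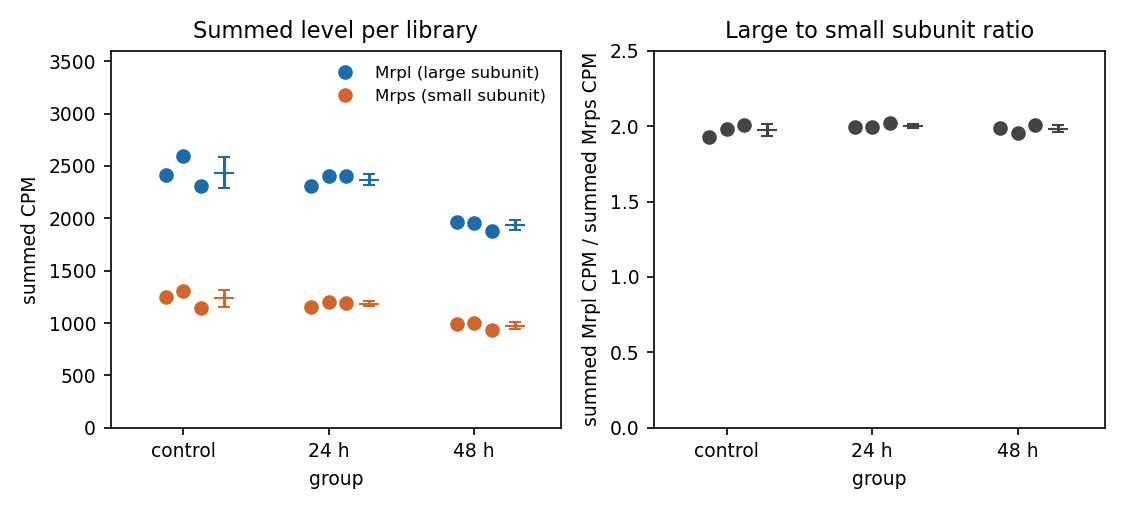
Left, summed CPM (vertical axis, from 0) of the 49 Mrpl genes (blue) and the 29 Mrps genes (orange) in each of the 3 libraries per group (points), with mean and SD beside them; right, the ratio of the 2 sums. The 48 h points for Mrpl, 1881 to 1968 CPM, lie below all others of that subunit, while the ratio stays between 1.93 and 2.02 in all 9 libraries.

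Gene by gene, 77 members had enough reads to be tested with edgeR's quasi-likelihood test, over 13812 genes with Benjamini-Hochberg adjustment, and a gene was called at an adjusted p under 0.05. At 48 h, 61 of the 77 were lower than in the control and 0 were higher, against 24.4% of all genes tested called lower and 22% called higher. At an unadjusted p under 0.05 the counts were 65 lower and 0 higher. All 77 fitted log2 fold changes were below 0, from -0.77 to -0.02, with a median of -0.34 beside -0.0022 over all genes tested. No member changed by a full log2 unit, and 10 were at or below -0.5. In 60 members every 48 h library lay below every control library, a separation that 27.4% of all genes tested showed in that direction. The standard errors of the log2 fold changes ranged from 0.055 to 0.23 with a median of 0.076.

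**Figure D2:**
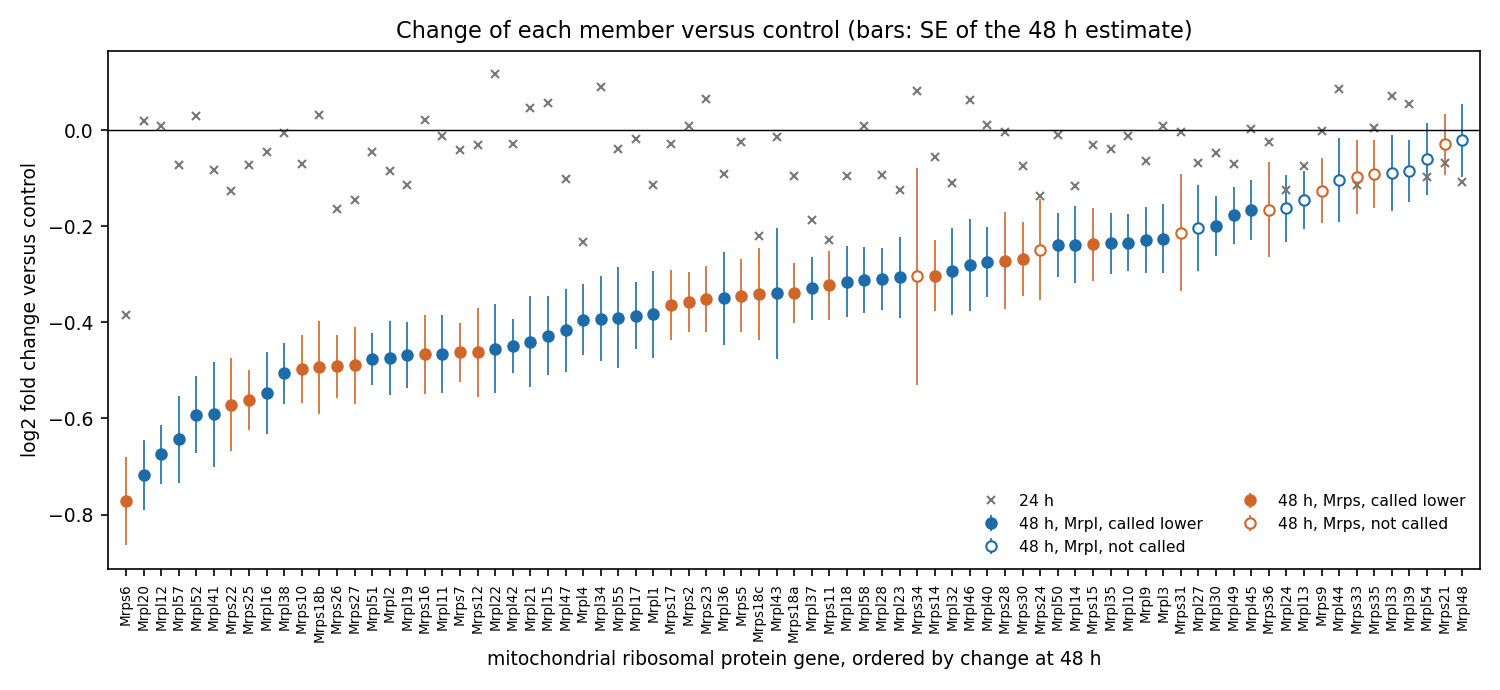
Log2 fold change versus control (vertical axis) of the 77 tested members, ordered along the horizontal axis by the change at 48 h; filled circles were called lower at 48 h, open circles were not, blue is Mrpl, orange is Mrps, bars are the SE and grey crosses are the 24 h estimates. The 48 h estimates run from -0.77 to -0.02, while the 24 h crosses run from -0.39 to 0.12.

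At 24 h the picture was different. A single member, Mrps6, was called lower than in the control and 0 were called higher, against 2.9% of all genes tested called lower and 3.25% called higher. At an unadjusted p under 0.05, edgeR gave 6 lower and 0 higher (Mrpl37, Mrpl4, Mrps11, Mrps18c, Mrps26 and Mrps6), and DESeq2 also called 1 member lower. The fitted changes ranged from -0.39 to 0.12 with a median of -0.04 (all genes -0.0042), and 56 were below 0. In 8 members the 24 h libraries all lay below the control libraries, which 11.2% of all genes tested did. Leaving out control replicate 3 gave 5 calls, and leaving out control replicate 1 or 2, or 24 h replicate 2 or 3, gave 0.

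Tested directly against 24 h, 50 members were lower at 48 h and 0 were higher, against 25.4% and 23.7% of all genes tested. The median log2 fold change was -0.27, 73 of the 77 estimates were below 0, and in 58 members the 48 h and 24 h libraries did not overlap, beside 30.3% of all genes tested lower without overlap. The 24 h and 48 h comparisons with the control share the same 3 control libraries. The direct comparison does not use the control levels. The control libraries still enter its fit, through the choice of genes tested, the scaling and the estimate of spread.

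**Figure D3:**
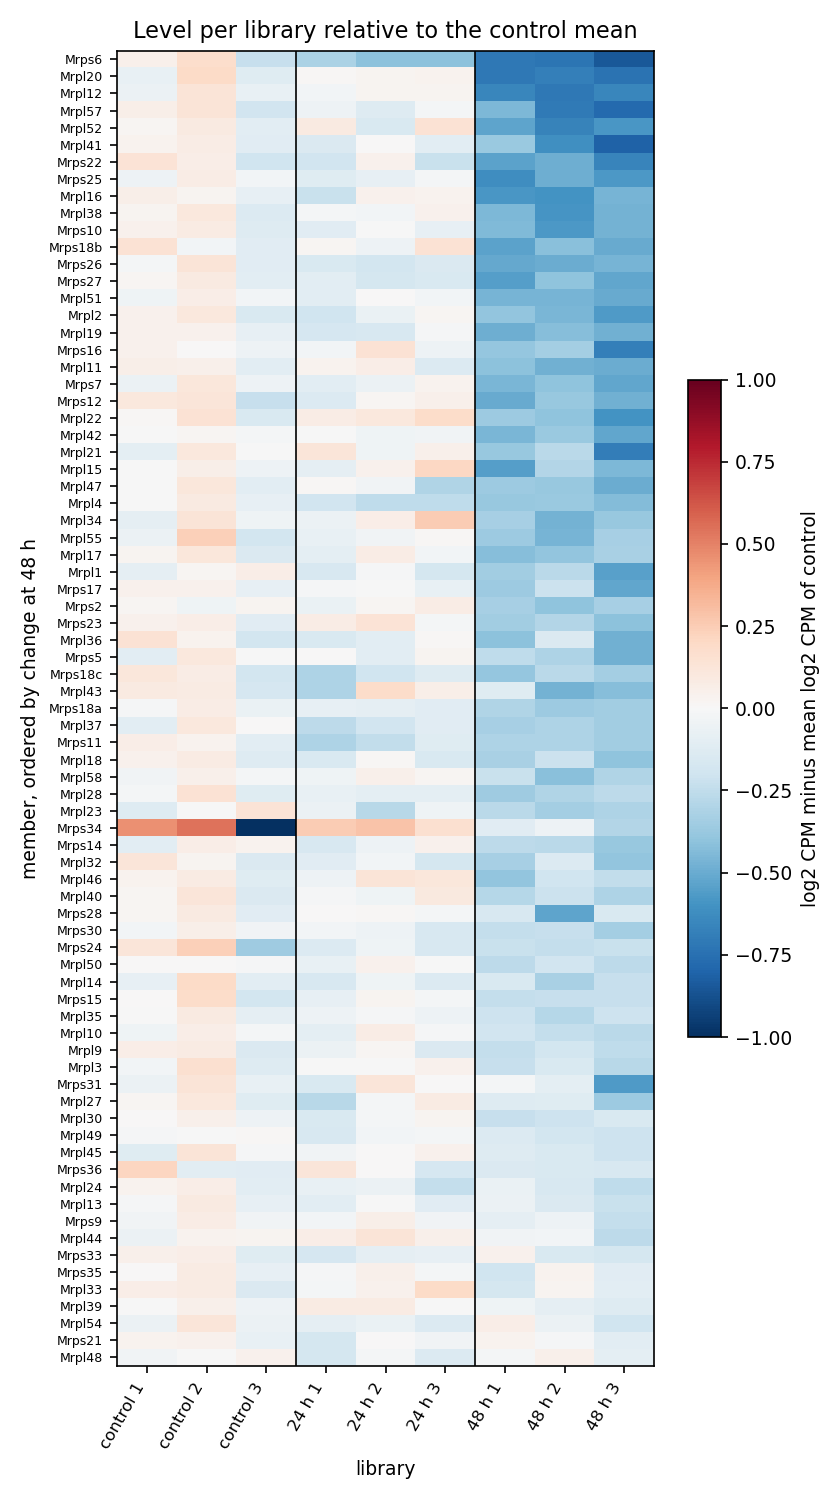
Colour map of the 77 tested members (rows, ordered by change at 48 h) in the 9 libraries (columns), as log2 CPM minus the mean log2 CPM of the 3 control libraries; red is higher and blue lower, and the scale ends at -1 and 1. The 3 columns at 48 h are blue over most rows, the bottom rows such as Mrps21 and Mrpl48 are pale, and Mrps34 in control replicate 3 stands out at the end of the scale.

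The 2 subunits were set side by side, without a test between them. Among the large-subunit genes 40 of 48 tested were called lower at 48 h, with a median log2 fold change of -0.32. Among the small-subunit genes 21 of 29 were called lower, with a median of -0.34. Over all genes tested the shares at 48 h were 24.4% lower and 22% higher. The summed Mrpl level fell by 20.6% and the summed Mrps level by 21.1%. The Mrpl sums were 2415, 2591 and 2305 CPM in the control, 2307, 2404 and 2400 CPM at 24 h, and 1968, 1953 and 1881 CPM at 48 h. The Mrps sums were 1250, 1308 and 1149 CPM in the control, 1156, 1204 and 1189 CPM at 24 h, and 988, 999 and 938 CPM at 48 h. In both subunits the 48 h libraries were below all others. The ratio of the sums was 1.97 ± 0.038 (SD, n = 3) in the control, 2.00 ± 0.013 at 24 h and 1.98 ± 0.026 at 48 h, differences no larger than the SD of the control libraries. Summed as CPM per kilobase the ratio was 2.05 ± 0.065 in the control, 2.10 ± 0.024 at 24 h and 1.98 ± 0.014 at 48 h. On that scale the 48 h libraries (1.97 to 2.00) lay below every 24 h library (2.08 to 2.12) and below 2 of the 3 control libraries, the third being at 1.98, so the order of 48 h and control depended on the scale. The symbol is an imperfect guide to place, because Mrps18a and Mrps30 sit in the large subunit and Mrps36 belongs to the 2-oxoglutarate dehydrogenase complex, and with the genes moved accordingly the ratios were 2.20, 2.23 and 2.23.

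Genes with a counterpart in bacteria were called lower at 48 h in 40 of 47 tested (median log2 fold change -0.34). Those specific to mitochondria were called lower in 21 of 30 (median -0.31), beside 24.4% of all genes tested. The difference between these classes was not tested. Across the 77 members the change at 48 h was nearly unrelated to the control level (r = -0.039, rho = -0.010) and to gene length (r = 0.055, rho = 0.028), correlations across genes that share the same libraries. The control libraries also enter the change itself, so the first pair of values is not independent.

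In the large subunit the stalk, which recruits translation factors, is built on Mrpl10, Mrpl11 and Mrpl12, and all 3 were called lower at 48 h. So were 79.2% of all members tested and 24.4% of all genes tested, so these calls are not particular to the stalk. Mrpl12 (ENSMUSG00000039640, GRCm39 chr11:120375439-120379891, plus strand) is the stalk protein that also binds the mitochondrial RNA polymerase. It was measured at 109, 124 and 108 CPM in the control, 111, 116 and 116 CPM at 24 h, and 72.0, 68.9 and 72.3 CPM at 48 h. The 48 h libraries lay far below the other 6, which overlapped. Its log2 fold change at 48 h was -0.67 ± 0.06 (SE, edgeR adjusted p = 4.88e-08). Mrpl11, at the base of the stalk, was lower by a log2 fold change of -0.47 ± 0.08 (edgeR adjusted p = 0.000116), and Mrpl10, an addition to the named genes made after its values were seen, by -0.23 ± 0.06 (edgeR adjusted p = 0.00333).

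Other large-subunit members spanned the whole range of change. Mrpl20 (ENSMUSG00000029066, GRCm39 chr4:155887335-155894432, plus strand), an rRNA-binding protein with a bacterial counterpart, stood at 63.5, 76.3 and 61.2 CPM in the control, 67.2, 68.0 and 68.3 CPM at 24 h, and 40.6, 41.5 and 39.9 CPM at 48 h. Only the 48 h group was apart from the rest, with a log2 fold change of -0.72 ± 0.07 against the control (edgeR adjusted p = 2.44e-07). Mrpl57 (ENSMUSG00000021967, GRCm39 chr14:58063691-58066753, plus strand), a protein specific to mitochondria, gave 47.6, 49.8 and 40.0 CPM in the control, 43.9, 41.7 and 45.0 CPM at 24 h, and 33.3, 27.99 and 26.6 CPM at 48 h. Its 48 h libraries did not overlap the others, and its log2 fold change was -0.64 ± 0.09 (edgeR adjusted p = 1.15e-05). Mrpl52 (ENSMUSG00000010406, GRCm39 chr14:54664366-54667213, plus strand), a mitochondria-specific protein of the central protuberance, gave 49.1, 51.8 and 45.0 CPM in the control, 51.7, 43.7 and 53.6 CPM at 24 h, and 33.7, 30.6 and 32.4 CPM at 48 h. Control and 24 h libraries were intermixed, and the change at 48 h was -0.59 ± 0.08 on the log2 scale (edgeR adjusted p = 8.54e-06).

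**Figure D4:**
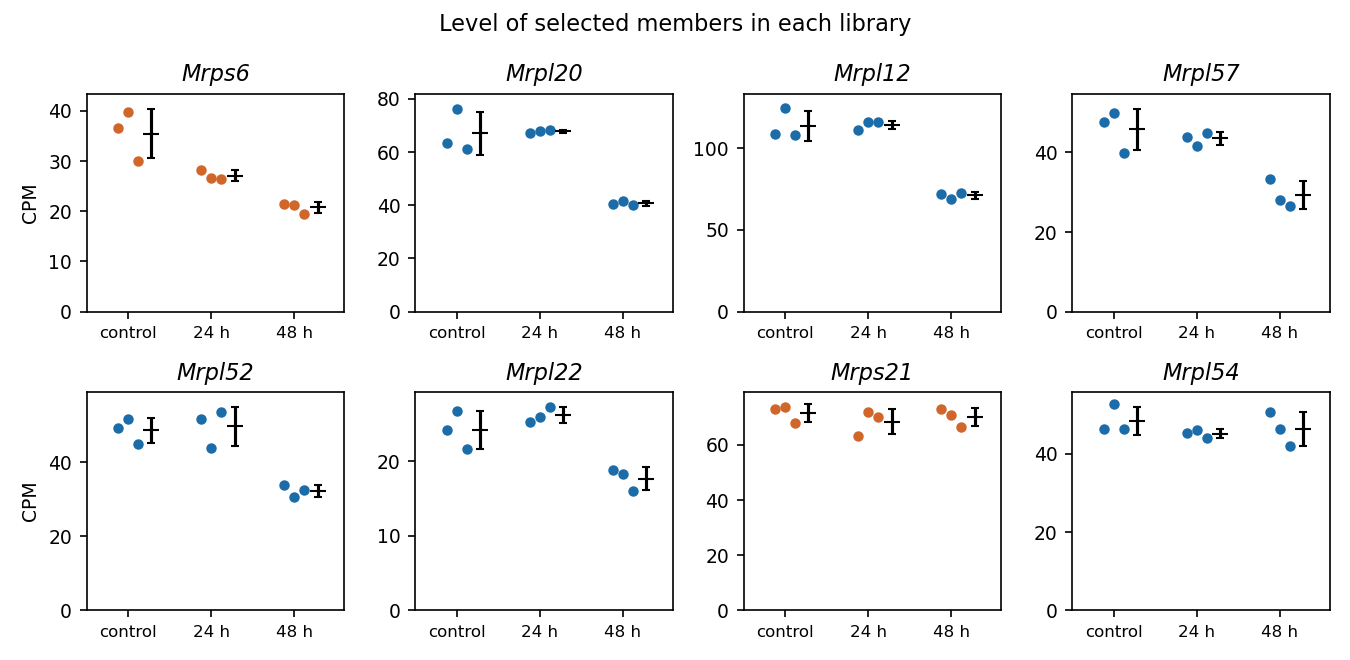
CPM (vertical axes, each from 0) of 8 members in the 3 libraries of each group (points; blue Mrpl, orange Mrps), with mean and SD in black. In 6 panels the 48 h points lie below all other points, while in the panels of Mrps21 and Mrpl54 the 3 groups overlap.

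The proteins around the peptide exit site (Mrpl22, Mrpl23, Mrpl24, Mrpl45 and Mrpl47) included 4 called lower at 48 h. That is near the share of all members tested, 79.2%, beside 24.4% of all genes tested. Mrpl22, which lines the exit tunnel, stood at 24.3, 26.7 and 21.7 CPM in the control, 25.4, 26.0 and 27.4 CPM at 24 h, and 18.8, 18.3 and 15.96 CPM at 48 h, and its change from 24 h to 48 h was -0.57 ± 0.09 on the log2 scale (edgeR adjusted p = 4.32e-05). The call of Mrpl45, which anchors the ribosome to the inner membrane, was close to the threshold, with a log2 fold change at 48 h of -0.17 ± 0.06 (edgeR adjusted p = 0.0386). It was called in only 3 of 15 alternative fits, with adjusted p from 0.0135 to 0.236 over them, and DESeq2, library-size scaling, the stricter filter and the fit of 2 groups alone were among those that did not call it. Without control replicate 2 the estimate was -0.09. Of 7 proteins of the central protuberance 5 were called lower, again near the share of all members, with a median log2 fold change of -0.28. The exceptions were Mrpl27 and Mrpl48, and these groupings by place were made after the values were seen.

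Near the catalytic centre, Mrpl3 changed by -0.23 ± 0.07 (edgeR adjusted p = 0.0151). Its call was lost without control replicate 2 (-0.13) and without 48 h replicate 3 (-0.19). Mrpl58, a peptidyl-tRNA hydrolase that releases stalled peptides, was lower by -0.31 ± 0.07 on the log2 scale (edgeR adjusted p = 0.00105), and Mrpl28 by -0.31 ± 0.06 (edgeR adjusted p = 0.000716). Mrpl44, which resembles RNase III, was measured at 19.7, 21.01 and 20.9 CPM in the control and 20.1, 20.2 and 17.1 CPM at 48 h, and these libraries overlapped. Its log2 fold change of -0.10 ± 0.09 was not called (edgeR adjusted p = 0.354).

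In the small subunit the lowest estimate was that of Mrps6 (ENSMUSG00000039680, GRCm39 chr16:91855158-91909115, plus strand), a platform protein with a bacterial counterpart. It was measured at 36.5, 39.7 and 30.1 CPM in the control, 28.3, 26.6 and 26.5 CPM at 24 h, and 21.5, 21.3 and 19.5 CPM at 48 h. The 3 groups did not overlap. Its log2 fold change was -0.39 ± 0.09 at 24 h (edgeR adjusted p = 0.0138) and -0.77 ± 0.09 at 48 h (edgeR adjusted p = 1.63e-06). The 24 h call was lost without control replicate 1 (-0.36) or 2 (-0.30) and without 24 h replicate 2 or 3 (-0.37 each). The count of this gene is uncertain, because 29152 bases of its 53958-base span overlap Slc5a3, the myo-inositol transporter, on the same strand, which held 10146 reads over the 9 libraries and was itself called lower at 48 h (log2 fold change -0.58).

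Among other small-subunit proteins, Mrps12, which lies at the decoding centre, was lower at 48 h by -0.46 ± 0.09 on the log2 scale (edgeR adjusted p = 0.000469). Mrps7, a head protein, stood at 105, 119 and 107 CPM in the control, 102, 106 and 113 CPM at 24 h, and 80.0, 83.1 and 76.8 CPM at 48 h, and its change at 48 h was -0.46 ± 0.06 (edgeR adjusted p = 6.33e-06). The 48 h libraries of Mrps7 were the lowest. Mrps16 was lower by -0.47 ± 0.08 (edgeR adjusted p = 0.000145). Mrps22, specific to mitochondria, was lower by -0.57 ± 0.10 (edgeR adjusted p = 8.8e-05) and Mrps23 by -0.35 ± 0.07 (edgeR adjusted p = 0.000346).

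The 3 paralogues of bacterial S18 were all called lower at 48 h, beside 79.2% of all members tested and 24.4% of all genes tested. Their log2 fold changes were -0.49 ± 0.10 for Mrps18b, -0.34 ± 0.06 for Mrps18a and -0.34 ± 0.10 for Mrps18c. Without control replicate 1 the estimate for Mrps18c was -0.27 and was not called. Mrps30, a large-subunit protein despite its name, changed by -0.27 ± 0.08 (edgeR adjusted p = 0.00773).

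The 16 members not called at 48 h were Mrpl13, Mrpl24, Mrpl27, Mrpl33, Mrpl39, Mrpl44, Mrpl48, Mrpl54, Mrps9, Mrps21, Mrps24, Mrps31, Mrps33, Mrps34, Mrps35 and Mrps36. Mrps21 (ENSMUSG00000054312, GRCm39 chr3:95769946-95778831, minus strand), a small-subunit protein with a bacterial counterpart, had the highest level per length, 96.9 CPM per kilobase in the control, followed by Mrpl12 at 74.1 and Mrpl28 at 61.3 CPM per kilobase. It was measured at 73.2, 73.8 and 67.9 CPM in the control, 63.2, 71.8 and 70.0 CPM at 24 h, and 73.1, 71.0 and 66.6 CPM at 48 h. The 3 groups overlapped, and the log2 fold change at 48 h was -0.03 ± 0.06. Mrpl54, the next in level at 58.7 CPM per kilobase in the control, gave 46.3, 52.7 and 46.3 CPM in the control and 50.6, 46.4 and 42.1 CPM at 48 h, a log2 fold change of -0.06 ± 0.07. A p that misses the threshold does not show that these genes did not change, and the sign of both estimates depended on single libraries, as did that of Mrpl48.

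Of the members, 2 could not be judged on their counts. Mrps34 gave 21.4, 22.8 and 7.82 CPM in the control against 12.8 to 15.1 CPM at 48 h, so control replicate 3 lay below every other library, and its standard error of 0.23 was the largest of all members. Its whole span lies within Mapk8ip3 on the opposite strand, which held 9676 reads. On the same strand Nme3, which held 0 reads, overlaps 1003 of the 2387 bases of Mrps34. Mrpl53 (GRCm39 chr6:83086021-83086920, plus strand) had 0 reads in all 9 libraries, where 3 reads would have amounted to 0.16 to 0.245 CPM, and was not tested. Its whole 900-base span lies within Gm42688 on the same strand, which held 178 reads. How reads shared by overlapping genes were counted is not given in the sources used here. In all, 41 members overlapped another gene of the table, 25 of them a protein-coding gene.

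Promoters of 78 members were read from GRCm39 at the canonical transcript start of GENCODE release M39, from 250 bases before to 50 after the start, and searched on both strands for letters of factors known for mitochondrial genes. The core of the NRF1 site, CGCATGCG, was found in 5 of 78 (6.41%), beside 3.63% of promoters of genes tested and 2.59% of all protein-coding promoters. The ETS core CCGGAAG, read by factors such as GABPA, was found in 24 (30.8%), beside 16.2% and 10.3%. The YY1 letters AAGATGGC were found in 6 (7.69%), beside 3.71% and 2.47%. The E-box CACGTG occurred in 6.41% of members and 10.1% of genes tested, and CCAAT in 34.6% and 39.9%. None of these strings contains another. Members called lower at 48 h held the ETS letters in 27.9% (17 of 61) and members not called in 37.5% (6 of 16). The NRF1 letters stood in 5 of 61 called and 0 of 16 not called, the YY1 letters in 6 of 61 and 0 of 16, the E-box in 6.56% and 6.25%, and CCAAT in 36.1% and 25.0%. None of these differences was tested. A match is a description of the letters and not evidence of binding.

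Below, 6 promoters are printed 5′ to 3′ from 120 bases before to 30 after the start, with NRF1, ETS and YY1 matches in capitals, to show members called lower at 48 h with each kind of match (Mrpl22, Mrps18b, Mrpl52, Mrpl36), the stalk gene Mrpl12 with none, and Mrps21, which was not called. All are from GRCm39, on the plus strand at chr11:58062355-58062504 (Mrpl22), chr14:54664240-54664389 (Mrpl52), chr13:73478982-73479131 (Mrpl36) and chr11:120375319-120375468 (Mrpl12), and on the minus strand at chr17:36227461-36227610 (Mrps18b) and chr3:95778802-95778951 (Mrps21).
Mrpl22: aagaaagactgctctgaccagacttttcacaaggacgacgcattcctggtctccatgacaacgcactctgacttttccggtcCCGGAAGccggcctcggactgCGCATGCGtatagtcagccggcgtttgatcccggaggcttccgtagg
Mrps18b: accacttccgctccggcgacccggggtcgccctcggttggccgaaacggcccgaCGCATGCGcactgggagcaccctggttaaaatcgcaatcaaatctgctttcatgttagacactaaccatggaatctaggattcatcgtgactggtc
Mrpl52: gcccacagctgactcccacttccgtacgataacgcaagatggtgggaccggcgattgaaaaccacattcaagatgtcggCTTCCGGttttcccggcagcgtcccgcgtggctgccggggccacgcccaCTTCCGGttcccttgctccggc
Mrpl36: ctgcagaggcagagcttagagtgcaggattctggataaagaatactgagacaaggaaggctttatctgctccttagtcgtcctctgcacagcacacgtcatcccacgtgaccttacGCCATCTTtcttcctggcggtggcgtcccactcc
Mrpl12: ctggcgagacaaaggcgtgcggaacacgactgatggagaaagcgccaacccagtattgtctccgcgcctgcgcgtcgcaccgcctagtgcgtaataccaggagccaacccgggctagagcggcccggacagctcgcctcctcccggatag
Mrps21: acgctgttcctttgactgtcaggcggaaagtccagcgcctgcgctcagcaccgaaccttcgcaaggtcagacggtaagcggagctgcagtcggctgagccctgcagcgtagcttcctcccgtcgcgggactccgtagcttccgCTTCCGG

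Mrpl22 held an ETS and an NRF1 match within 40 bases before the start, Mrps18b an NRF1 match, Mrpl52 a pair of ETS matches on either side of the start, and Mrpl36 a YY1 match at the start. Mrps21 also held an ETS match just after the start, so the same letters stood in front of a member that was called and of one that was not.

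Many members start close to a neighbouring gene. Starts here are the 5′ ends of the deposited gene spans, not the canonical transcript starts used for the promoters above. The start of another protein-coding gene on the opposite strand lay within 500 bases for 25 of the 78 members (32.1%), beside 14.2% of 11780 protein-coding genes tested. All 25 neighbours were tested, and at 48 h 11 of them (44%) were called lower and 2 (8%) higher, with a median log2 fold change of -0.18. Of all genes tested, 24.4% were called lower and 22% higher. Among the 25 neighbours, 2 were members themselves, and both are among those called lower. These are Mrpl46 and Mrps11, which are neighbours of each other, 412 bases apart. Mrps11 was called lower in all 15 alternative fits. The call of Mrpl46 held in 11 of 15 and was lost with DESeq2. The neighbours of Mrpl57 and Mrpl51, Ska3 of the kinetochore and Ncapd2 of condensin, were lower by log2 fold changes of -0.55 and -0.47. Klc4, a kinesin light chain 207 bases from Mrpl2, was higher by 0.54.

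Other genes of mitochondrial translation were read from fixed lists, all against the background of 24.4% lower and 22% higher at 48 h. Of the 5 mitoribosomal proteins without the Mrp prefix, 3 were called lower and 0 higher (median log2 fold change -0.32), among them Ptcd3 (-0.43), a small-subunit protein, and Chchd1 (-0.32). Of 29 factors for ribosome assembly and rRNA modification, 10 were lower and 0 higher (median -0.20), with C1qbp (-0.69) and the GTPase Noa1 (-0.54) lowest, and at 24 h Mtg1, an assembly GTPase, was the only member of that list called (-0.41, edgeR adjusted p = 0.0383). Of 17 mitochondrial aminoacyl-tRNA synthetases, which charge the tRNAs, 9 were lower and 0 higher (median -0.23), led by Yars2 (-0.73) and Mars2 (-0.67). Of 19 translation factors, 5 were lower and 1 higher (median -0.09). The elongation factor Gfm1 (-0.71) and the RNA-binding protein Lrpprc (-0.56) were lower, and Oxa1l, which inserts proteins into the inner membrane, was higher (0.23). In the test of 48 h against 24 h, 9 synthetases were called lower and 2 higher, Fars2 (0.53) and Lars2 (0.34). Of the assembly factors 8 were lower and 1 higher, Malsu1 (0.33). The background in that comparison was 25.4% lower and 23.7% higher.

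**Figure D5:**
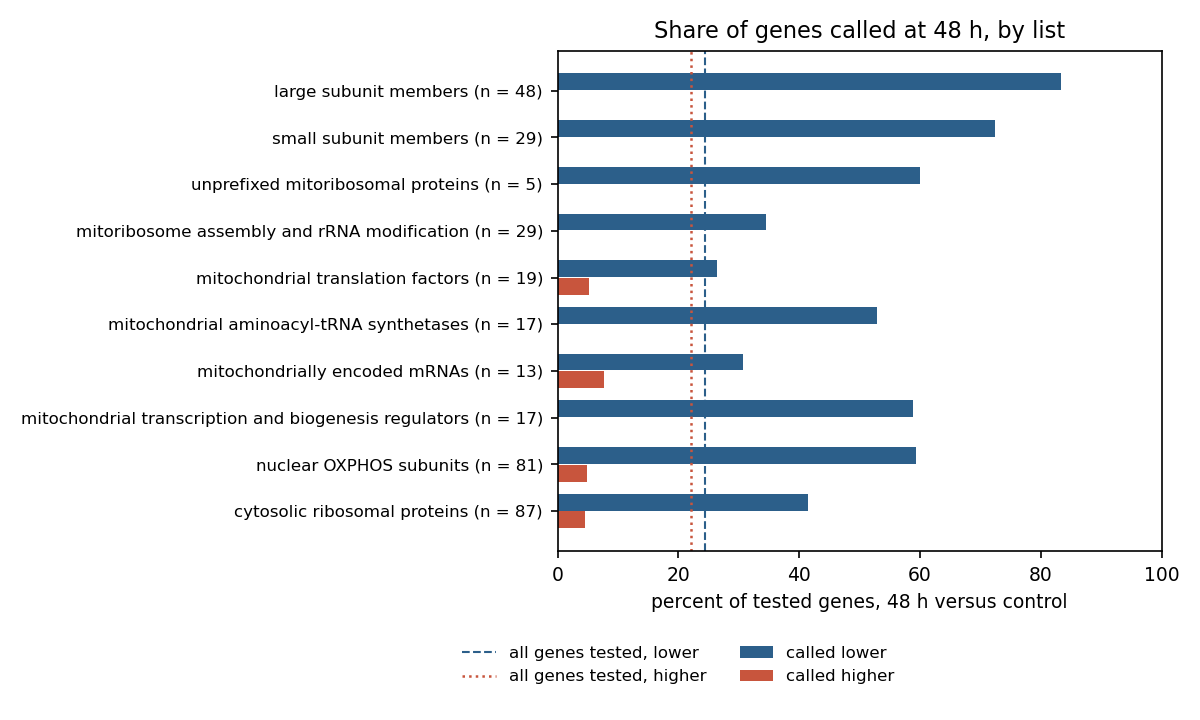
Percent of tested genes (horizontal axis, 0 to 100) called lower (blue bars) and higher (red bars) at 48 h versus control in each list, with the number tested in brackets; dashed and dotted lines mark the shares over all genes tested, 24.4% lower and 22% higher. The bars for lower are longest for the Mrpl and Mrps genes, 83.3% and 72.4%. The translation factors, 26.3%, and the mitochondrially encoded mRNAs, 30.8%, lie nearest the line for lower.

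The mRNAs that the mitochondrial ribosome translates and its own rRNAs were called in both directions. Of the 13 mitochondrially encoded mRNAs 4 (30.8%) were called lower and 1 (7.69%) higher at 48 h, against 24.4% and 22% of all genes tested. The share called lower was thus near the background. The median log2 fold change was -0.12, with mt-Nd2 at -0.31, mt-Nd1 at -0.23 and mt-Co1 at 0.12. Their summed level differed by -3.33% between control and 48 h. The 2 rRNAs had opposite signs, mt-Rnr2 of the large subunit at -0.66 and mt-Rnr1 of the small subunit at 0.44, and how rRNA was removed or mRNA selected in these libraries is not given in the sources used here. The share of all counted reads on mitochondrial genes was 2.58% to 2.81% in the 9 libraries.

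Nuclear genes for subunits of oxidative phosphorylation, listed by symbol and including a few like-named genes, were called lower in 48 of 81 tested and higher in 4 (median log2 fold change -0.21). The background at 48 h, here and for the next lists, was 24.4% of all genes tested lower and 22% higher. Atp5g1, of the ATP synthase ring, was at -0.92 and Ndufa12, of complex I, at -0.84, while the like-named genes Ndufa4l2 and Cox7a2l were at 3.98 and 0.77. Of 17 regulators of mitochondrial transcription and biogenesis 10 were lower and 0 higher (median -0.17), among them Myc (-0.64) and Gabpb1 (-0.51), the partner subunit of GABPA. In the test of 48 h against 24 h, 7 regulators were lower and 1 higher, beside 25.4% and 23.7% of all genes tested. The higher one was Ppargc1a, at 2.03 ± 0.72 (SE, edgeR adjusted p = 0.0259). Cytosolic ribosomal proteins, listed by symbol and including a few like-named genes such as Rps19bp1, were called lower in 36 of 87 tested and higher in 4 (median -0.12).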

How the data were processed

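The deposited table holds raw read counts per gene for 9 libraries. Per the labels and the study's methods, the authors made a directional library, read paired ends on a NovaSeq instrument, aligned to GRCm39 with HISAT2 and counted with featureCounts. The sources give different versions, and strand use and shared reads are not stated. Gene spans come from that table. The members and lists were chosen with earlier results of these data known.

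Counts were fitted in edgeR 4.0.16 (R 4.3.3) with TMM scaling, filterByExpr at a minimum count of 10, group as the only term, 9 libraries and 6 residual degrees of freedom. Benjamini-Hochberg adjustment ran over 13812 genes, and SE is the absolute log2 fold change over the square root of F. Cell-type markers and other lists were treated alike. Library totals were 12250628 to 18515456 counts, and 3 counts equal 0.16 to 0.245 CPM. Intervals are SDs or SEs. Libraries of the same group varied beyond counting noise (chi-square per degree of freedom 2.26 to 8.14).

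Members were named by role (Mrpl12, Mrpl11, Mrpl3, Mrpl44, Mrpl58, Mrps12, Mrps16, Mrps22, Mrps18a, Mrps18b, Mrps18c, Mrps30), by the largest called changes without overlap (up to 5 per comparison and direction), by the highest CPM per kilobase (3 per subunit), and if untested. From the other lists up to 2 called genes per comparison and direction were picked by size of change, and not all of them are named. On data simulated for 48 h versus control (13602 genes, 200 changed), the test recovered 68.7% at a log2 change of 0.5 and 85% at 1. Unchanged genes made up 7.4% of those called. In the real data 24.4% of genes tested were called lower and 22% higher at 48 h. The simulated share of changed genes was much smaller, so these rates do not carry over to the real comparison. Alternatives were library-size scaling, DESeq2 1.42.0, other filters, an adjusted p under 0.01, 2 groups alone, a replicate block, each library left out, and a length and level trend, the last added after the data were seen.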

Additional observations from a re-analysis of the deposited data

Results flagged for a closer look

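The changes at 24 h and at 48 h differed, by the direct test of 48 h against 24 h, for 50 members, all of them lower at 48 h, and these included 18 of the 22 tested members named by the rule. The log2 fold changes from 24 h to 48 h in the large subunit were -0.74 for Mrpl20, -0.68 for Mrpl12, -0.62 for Mrpl52, -0.57 for Mrpl57, -0.57 for Mrpl22, -0.45 for Mrpl11, -0.32 for Mrpl58, -0.24 for Mrpl3 and -0.22 for Mrpl28. Among genes with the Mrps prefix they were -0.53 for Mrps18b, -0.49 for Mrps16, -0.44 for Mrps22, -0.43 for Mrps12, -0.42 for Mrps7, -0.42 for Mrps23, -0.39 for Mrps6, -0.24 for Mrps18a and -0.19 for Mrps30. Mrps30 was the closest to the threshold (edgeR adjusted p = 0.0428) and was called in only 5 of 15 alternative fits, with adjusted p from 0.0385 to 0.167 over them. DESeq2, library-size scaling and both other filters did not call it, and without 48 h replicate 3 it was -0.15.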

How the results depend on the processing

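At 48 h the count of members called lower was 50 to 64 under every alternative run, including 56 by DESeq2 and 51 to 64 with a library left out, and 48 members were called in all 15 alternative fits. The length and level trend left a median of -0.28. At 24 h the count was 2 with library-size scaling, 0 at an adjusted p under 0.01, and 0 to 5 with a library left out. The replicate block gave 63 at 48 h, 1 at 24 h and 51 for 48 h against 24 h. Deviations of same-numbered libraries correlated at -0.049 to 0.077, beside -0.097 to 0.095 for libraries of unlike number. These values show no pairing by number, but with 3 libraries per group they cannot exclude it. The ratio of Mrpl to Mrps was 2.05 (control), 2.10 (24 h) and 1.98 (48 h) summed per kilobase, and 2.20, 2.23 and 2.23 by structure. The sign of 3 uncalled members turned at 48 h in some fits. Mrps21 was at 0.0021 with a mean count of at least 50 and from -0.060 to 0.012 with a library left out, Mrpl54 from -0.13 to 0.014, and Mrpl48 was at 0.0099 with that filter and from -0.057 to 0.020 with a library left out. The causes were not tested. With 0 reads, no change of Mrpl53 could be measured.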
